A study of Mus musculus with 20 samples.

Results

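miR-21 is among the microRNAs (miRNAs) most often followed in liver injury. It was measured here in livers of PiZ mice, which express the human alpha-1 antitrypsin protein with the Z mutation, and of wild-type (WT) mice. All rows named for miR-21a, miR-21b or miR-21c were taken, with any arm suffix or none. They were 4 of 1509 miRNA rows listed in any file: mmu-miR-21a-5p, mmu-miR-21a-3p, mmu-miR-21b and mmu-miR-21c. All 4 were listed in every file and passed the filter on low counts.

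The study sequenced small RNA from the livers of 10 mice of the C57BL/6 strain, all 6 weeks old, 5 labelled PiZ and 5 labelled WT. No treatment is named for either genotype, and the sources used here give neither the sex of the mice nor the promoter of the transgene. One library was made from each liver and run in 2 technical replicates, whose reads were summed. The labels name a separate mouse for each library, so the spread between libraries holds the spread between animals.

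miR-21 is made from a hairpin whose 5p arm is the usual guide strand, the strand loaded into Argonaute to repress messenger RNAs such as Pdcd4. The 3p arm is the passenger strand and is mostly degraded. miR-21 is known to rise in injured, regenerating and fibrotic liver, and it is made in hepatocytes as well as in stellate and immune cells. The Z protein misfolds and accumulates in the endoplasmic reticulum of hepatocytes. miR-21b and miR-21c are near copies of the guide strand with hairpins elsewhere in the mouse genome.

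The mature sequences are shown because the 3 guide-like rows differ by few bases and reads must be divided among them. They are RefSeq sequences on GRCm38.p6, written 5′ to 3′, with the seed (bases 2 to 8) in capitals.
miR-21a-5p: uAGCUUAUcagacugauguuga
miR-21c: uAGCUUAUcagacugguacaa
miR-21b: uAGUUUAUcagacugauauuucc
miR-21a-3p: cAACAGCAgucgaugggcuguc

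miR-21a-5p and miR-21c share the seed AGCUUAU, and no other listed miRNA with a RefSeq mature sequence held it. miR-590-5p, known as a relative of miR-21 with the same seed, was listed in 10 of the 20 files with 0 reads, which allows up to 3 reads per file. miR-21b has the seed AGUUUAU. Counted from the 5′ end, miR-21b differs from miR-21a-5p by C4U, G18A, G21U and A22C, so 18 of 22 bases are identical. miR-21c differs by A16G, G18A, U19C, U20A and G21A, so 16 of 21 bases are identical and the first 15 are shared. The same sequences are repeated with the bases that differ from miR-21a-5p in capitals, to show where a read can tell the rows apart.
miR-21b: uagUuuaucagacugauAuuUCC
miR-21c: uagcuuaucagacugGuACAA

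The mature miR-21a-5p lies at chr11:86584120-86584141 on the minus strand and miR-21a-3p at chr11:86584082-86584103. Their hairpin overlaps an exon and the annotated untranslated region of Vmp1, a gene of autophagy on the same strand. miR-21b lies at chr3:29636768-29636790 on the plus strand, within the gene Egfem1 and outside its exons. miR-21c lies at chr8:128278188-128278208 on the minus strand, outside genes, 80379 bases from Nrp1, the nearest coding gene.

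The deposited files hold estimated counts, and 19 to 32 rows per file have fractional values, the let-7 rows among them. All 4 miR-21 rows were whole numbers in all 20 files. No fractional sharing of reads between the miR-21 rows was therefore visible, and the sources used here do not say how reads matching more than 1 of them were assigned. Values of the single rows depend on that step, so the 3 guide rows (miR-21a-5p, miR-21b and miR-21c) were also summed.

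The libraries held 1307857 to 10780801 miRNA reads, and miR-22-3p took 38.5% to 59.7% of them. Hepatocyte miRNAs, were abundant, among them miR-122-5p with 9512 ± 1726 CPM in the PiZ group and 13013 ± 1133 CPM in the WT group (SD, n = 5 each). CPM are read counts divided by the TMM-scaled library size. The files carry 2 feature lists, a longer one (PiZ mice 1 and 2, WT mice 1 to 3) and a shorter one (PiZ mice 3 to 5, WT mice 4 and 5). Feature list was therefore a term of the model. Depth split with the list, at 1307857 to 2507519 reads with the longer and 7043905 to 10780801 with the shorter. List and depth therefore cannot be told apart. WT mice 1 and 3 stood apart. They had the fewest reads (1307857 and 1524426) and the highest shares of miR-22-3p (59.7% and 52.2%), so the results that rest on them are given with and without them.

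miR-21a-5p was the fifth most abundant miRNA by mean level, behind miR-22-3p, miR-192-5p, miR-148a-3p and miR-26a-5p. Next below it were miR-126a-5p, let-7f-5p, miR-27b-3p, miR-21b and miR-378d. In PiZ mice 1 to 5, miR-21a-5p stood at 28459, 18645, 20189, 21815 and 34623 CPM. In WT mice 1 to 5 it stood at 6129, 34995, 9172, 32024 and 35949 CPM. WT mice 1 and 3 were the lowest of all 10, the other WT mice lay at or above most PiZ mice, and the genotypes overlapped.

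The PiZ mean of miR-21a-5p was 24746 ± 6669 CPM and the WT mean 23654 ± 14720 CPM (SD, n = 5 each). The log2 fold change of PiZ over WT was 0.039 with an SE of 0.44 and a 95% interval of -0.92 to 1.00 (edgeR quasi-likelihood test, adjusted p = 0.971). No difference beyond the spread between mice was found, and the interval leaves room for close to 2-fold in either direction. The spread itself was wider in WT, where the highest mouse had 5.87 times the level of the lowest, against 1.86 times in PiZ. The wider WT spread rested on WT mice 1 and 3, at 6129 and 9172 CPM. WT mice 2, 4 and 5 lay between 32024 and 35949 CPM. In bulk liver, fewer cells of a type and less RNA per cell cannot be told apart.

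miR-21b, the copy with the changed seed, was at 15915, 14798, 11052, 12536 and 19681 CPM in PiZ mice 1 to 5. It was at 3319, 15025, 4161, 14919 and 16616 CPM in WT mice 1 to 5. WT mice 1 and 3 were again lowest, and only PiZ mouse 5 lay above every WT mouse. The log2 fold change was 0.45 with an SE of 0.42 and a 95% interval of -0.46 to 1.37 (edgeR, adjusted p = 0.564).

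miR-21c, with the seed of miR-21a-5p, was at 7200, 9233, 5081, 5771 and 8754 CPM in PiZ mice 1 to 5. It was at 2171, 10792, 1956, 9433 and 9264 CPM in WT mice 1 to 5. The order of the mice differed from that of miR-21a-5p in PiZ mouse 2, which was highest for miR-21c and lowest for miR-21a-5p among PiZ mice. The log2 fold change was 0.10 with an SE of 0.47 and a 95% interval of -0.92 to 1.13 (edgeR, adjusted p = 0.928).

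miR-21a-3p, the passenger strand, was at 196, 105, 89.5, 181 and 219 CPM in PiZ mice 1 to 5. It was at 62.2, 146, 71.1, 87.0 and 128 CPM in WT mice 1 to 5. PiZ mice 1, 4 and 5 lay above every WT mouse and PiZ mice 2 and 3 within the WT range. The log2 fold change was 0.65 with an SE of 0.34 and a 95% interval of -0.091 to 1.38 (edgeR, adjusted p = 0.244). It rested on few reads in the shallow libraries, 87 in WT mouse 1 and 127 in WT mouse 3.

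**Figure D1:**
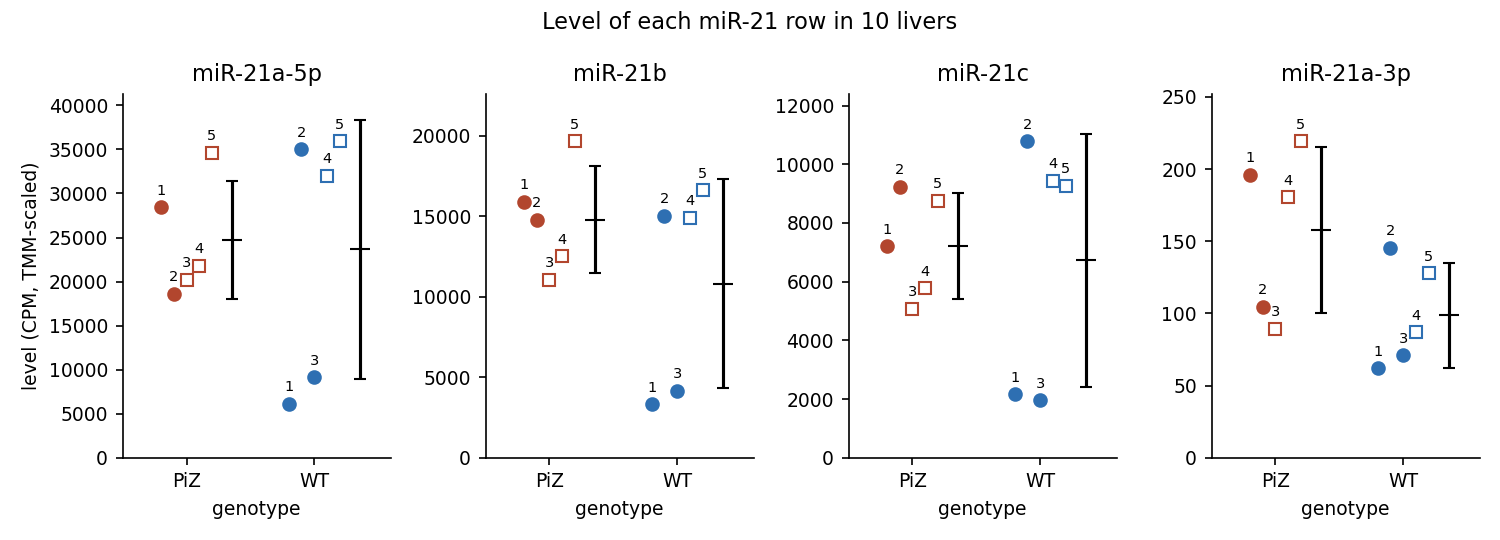
Levels of the 4 miR-21 rows in CPM (vertical axes, from 0, each panel on its own scale) by genotype (horizontal axes). Numbers are mice, filled circles the longer and open squares the shorter feature list, and black bars the mean ± SD of 5 mice. WT mice 1 and 3 lie lowest for each of the 3 guide rows, and PiZ mice 1, 4 and 5 lie above all WT mice for miR-21a-3p.

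Of the 4 rows, 0 were called between the genotypes at an adjusted p under 0.05 (edgeR). An unadjusted p under 0.05 was found for 0 of the 4 rows and for 82 of all 336 tested miRNAs (edgeR). Over all 336 tested miRNAs, 31 were called, which is 9.23% of those tested, 28 higher and 3 lower in PiZ. That count fell to 8 without WT mouse 4, rose to 53 without PiZ mouse 5, and was 1 without WT mice 1 and 3. DESeq2 and limma-voom also called 0 of the 4. Of the 336 miRNAs, DESeq2 called 39 higher and 11 lower in PiZ, and limma-voom 5 higher and 2 lower. The median log2 fold change of all tested miRNAs was 0.069. In all 10 mice the rows kept one order, with miR-21a-5p above miR-21b, miR-21b above miR-21c, and miR-21a-3p far below the other three.

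**Figure D2:**
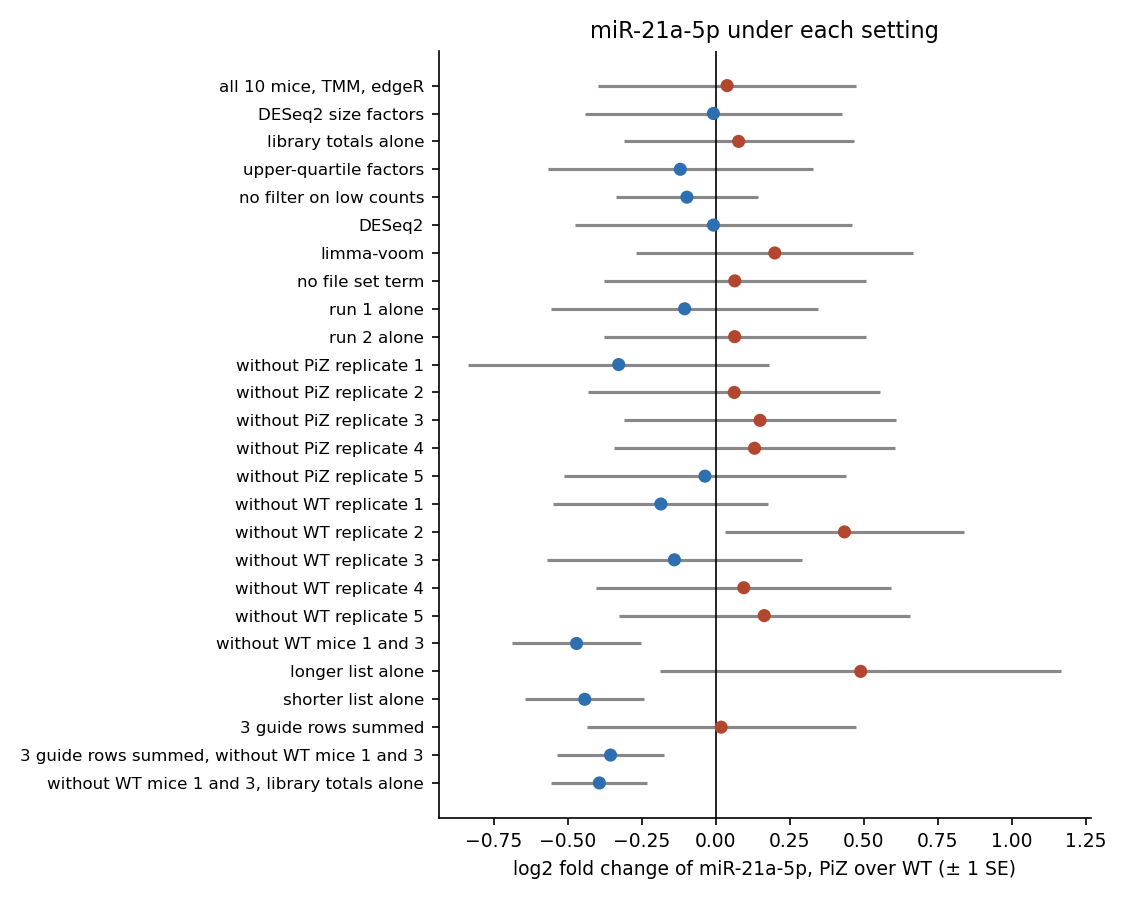
Log2 fold change of miR-21a-5p, PiZ over WT, on the horizontal axis, with bars of ± 1 SE, for the setting of the text (top) and each other setting. Red points lie above 0 and blue points below; the lowest is -0.47 without WT mice 1 and 3 and the highest 0.49 in the longer-list mice alone.

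The sign of the miR-21a-5p difference was not stable. With upper-quartile scaling, which moved the median of all tested miRNAs by -0.16, it was -0.12. Set against that median, miR-21a-5p was at -0.030 with TMM and at -0.024 with upper-quartile scaling, so with all mice it stayed close to the typical miRNA. Without WT mice 1 and 3 it was not close, at -0.55 from the median with TMM and -0.58 on library totals. The split of calls was 22 higher and 6 lower with upper-quartile scaling.

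Without WT mice 1 and 3, the log2 fold change of miR-21a-5p was -0.47 with an SE of 0.22 and a 95% interval of -0.97 to 0.034 (edgeR, adjusted p = 0.218). That of miR-21c was -0.47 with an SE of 0.19 (edgeR, adjusted p = 0.171), and that of miR-21b was -0.072 (edgeR, adjusted p = 0.862). miR-21a-3p stayed positive, at 0.40 with an SE of 0.35 (edgeR, adjusted p = 0.513). None of the 4 was called in that setting either, where 1 of the 336 miRNAs was called.

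As a plain share of all miRNA reads, miR-21a-5p took 2.86%, 1.89%, 2.19%, 2.28% and 2.96% in PiZ mice 1 to 5. It took 0.655%, 3.29%, 1.07%, 3.0002% and 3.31% in WT mice 1 to 5. Counting error is small beside these differences, since the exact 95% binomial (Clopper-Pearson) bounds of each share lay within 0.025 percentage points of it. Such bounds cover counting error only. The means were 2.43% ± 0.459 and 2.26% ± 1.29 (SD, n = 5 each), a difference of 0.170 points (exact two-sided permutation test, p = 0.770, adjusted p = 0.770 over 3 such tests).

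Within the longer-list mice the share averaged 0.701 points higher in PiZ, and within the shorter-list mice 0.678 points lower (PiZ minus WT -0.678; exact permutation p = 0.600 and 0.200, where 0.200 is the smallest either can give). Without WT mice 1 and 3 the difference was -0.763 points, and all 5 PiZ mice lay below the remaining 3 WT mice (exact permutation p = 0.0357, the smallest possible). Those mice were known to be low in miR-21a-5p when they were left out, so that p is not independent evidence.

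The difference of the genotype effect between the feature lists was tested for each row. For miR-21a-5p the effect was lower in the shorter-list mice by -0.90 on the log2 scale with an SE of 0.88 (edgeR interaction term, adjusted p = 0.883). For miR-21b it was -1.16 and for miR-21c -1.24 (edgeR, adjusted p = 0.883 for both). This test called 0 of the 336 miRNAs, 0.00%, and 13 had an unadjusted p under 0.05.

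WT mouse 2 decided that result. Without it the interaction was -2.07 for miR-21a-5p (edgeR, adjusted p = 0.0285), -2.20 for miR-21b (edgeR, adjusted p = 0.00687) and -2.54 for miR-21c (edgeR, adjusted p = 0.00622). That leaves WT mice 1 and 3 as the only WT animals with the longer list. How many of all tested miRNAs were called without WT mouse 2 was not counted, so these values cannot be read as particular to miR-21. Without mice 1 and 3, the interaction of miR-21a-5p was 0.16. That fit leaves WT mouse 2 as the only WT animal with the longer list, so it cannot show that the interaction is absent.

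The 3 guide rows together took 5.18%, 4.32%, 3.94%, 4.19% and 5.39% of all reads in PiZ mice 1 to 5. They took 1.24%, 5.71%, 1.79%, 5.28% and 5.69% in WT mice 1 to 5. Their summed share differed by 0.662 points between the genotypes (exact permutation p = 0.5), and by -0.956 points without WT mice 1 and 3 (exact permutation p = 0.0714). WT mice 1 and 3 again lay far below the rest. PiZ mouse 2, lowest of the PiZ mice for miR-21a-5p alone, was the third of them for the sum, and PiZ mouse 5 lay above WT mouse 4. The separation of the PiZ mice from WT mice 2, 4 and 5 in the share of miR-21a-5p alone was thus lost when the rows were summed. It was narrow, at 2.96% in PiZ mouse 5 against 3.0002% in WT mouse 4. In CPM it was absent for miR-21a-5p alone too, with 34623 in PiZ mouse 5 and 32024 in WT mouse 4.

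The division of these reads among the rows was then compared. miR-21b and miR-21c together held 44.8%, 56.3%, 44.4%, 45.6% and 45.1% of the guide-row reads in PiZ mice 1 to 5. They held 47.2%, 42.5%, 40.0%, 43.2% and 41.9% in WT mice 1 to 5. PiZ mouse 2 was far above all others and the rest spanned a narrow range. The means were 47.3% ± 5.08 and 43.0% ± 2.67 (SD, n = 5 each), a difference of 4.30 points (exact permutation p = 0.0873, adjusted p = 0.262 over 3 tests). Without WT mouse 1 the genotypes no longer overlapped and the p was 0.0159 (exact permutation), the smallest possible. WT mouse 1 was the only WT mouse above any PiZ mouse, so its removal fixed that p in advance and it is not evidence. Without PiZ mouse 2 the difference was 2.04 points.

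Taken alone, miR-21b held 30.9%, 34.7%, 30.4%, 31.2% and 31.2% of the guide-row reads in PiZ mice 1 to 5. In WT mice 1 to 5 it held 28.6%, 24.7%, 27.2%, 26.5% and 26.9%. All 5 PiZ mice lay above all 5 WT mice, WT mice 1 and 3 included. The bounds from counting alone reach at most 0.701 points from each share.

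The mean share of miR-21b was 31.7% ± 1.70 in PiZ and 26.8% ± 1.39 in WT (SD, n = 5 each), a difference of 4.92 points. An exact two-sided permutation test gave p = 0.00794, the smallest that 5 against 5 allows, and an adjusted p of 0.0397 over 5 single-value tests. This comparison was chosen after the values of the rows were seen, so the p is descriptive. The difference was 4.17 points without PiZ mouse 2 and 5.67 points without WT mice 1 and 3. It was 5.94 points in the longer-list mice and 4.29 points in the shorter-list mice, and 4.92 and 4.95 points in the first and second runs.

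miR-21c held 14.0%, 21.6%, 14.0%, 14.4% and 13.9% in PiZ mice 1 to 5 and 18.7%, 17.7%, 12.8%, 16.7% and 14.98% in WT mice 1 to 5. Its mean share differed by -0.618 points (exact permutation p = 0.810). The remainder, miR-21a-5p, held 43.7% to 55.6% in PiZ and 52.8% to 60.0% in WT. The higher share of miR-21b reads in PiZ may come from the Mir21b hairpin or from the assignment of miR-21a-5p reads to that row. It may also come from lower levels of the other guide rows. With all mice, the log2 fold change was 0.45 for miR-21b, 0.039 for miR-21a-5p and 0.10 for miR-21c. Without WT mice 1 and 3 the values were -0.072, -0.47 and -0.47, in that order, and none was called in either setting. Which of these sources applies was not tested.

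**Figure D3:**
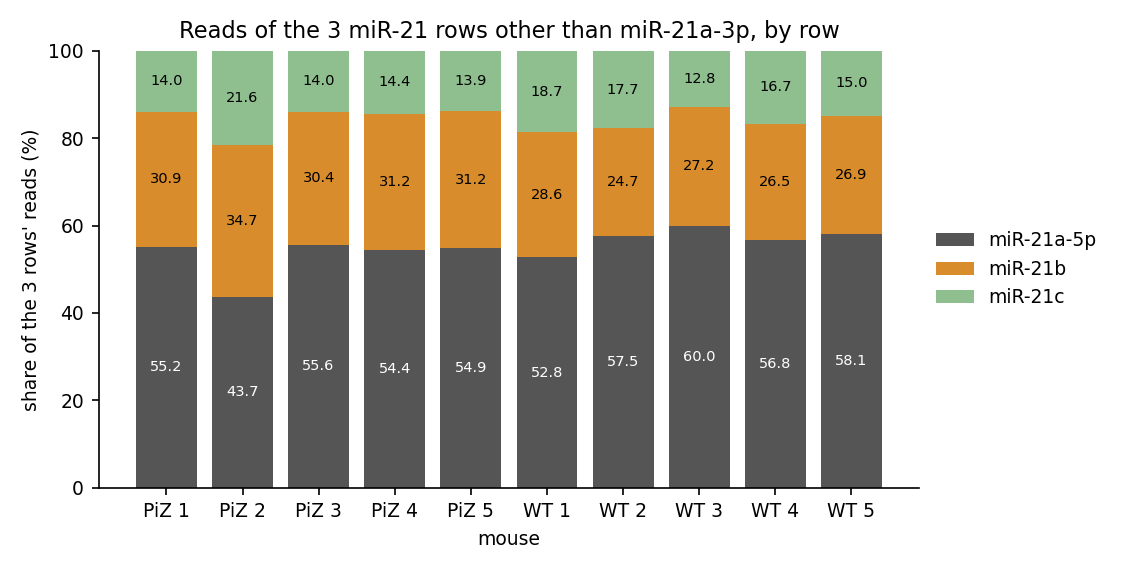
Share of the reads of miR-21a-5p, miR-21b and miR-21c (vertical axis, percent, summing to 100) in each mouse (horizontal axis), with the value printed in each block. The orange miR-21b block spans 30.4% to 34.7% in PiZ and 24.7% to 28.6% in WT, and PiZ mouse 2 has the smallest miR-21a-5p block, 43.7%.

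The balance of the hairpin's arms needs no scaling between libraries. miR-21a-5p had 145, 178, 226, 121 and 158 reads per read of miR-21a-3p in PiZ mice 1 to 5. It had 98.5, 240, 129, 368 and 281 in WT mice 1 to 5. WT mice 2, 4 and 5 had higher ratios than every PiZ mouse, WT mouse 1 had the lowest of all, and WT mouse 3 lay among the PiZ mice.

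On the log2 scale the ratio was 7.34 ± 0.336 in PiZ and 7.64 ± 0.799 in WT (SD, n = 5 each), a difference of -0.30 (exact permutation p = 0.444, adjusted p = 0.667 over 3 tests). Without WT mice 1 and 3 it was -0.85 (exact permutation p = 0.0357, the smallest possible), with the same limit on that p as above. Within the longer-list mice the difference was 0.15, and within the shorter-list mice -0.98.

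**Figure D4:**
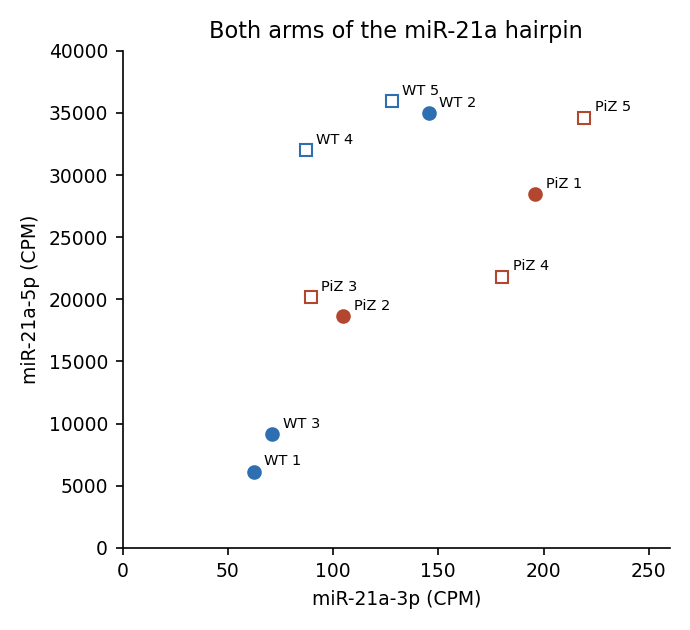
Level of miR-21a-5p (vertical axis, CPM) against miR-21a-3p (horizontal axis, CPM), both from 0, 1 point per mouse, red PiZ and blue WT, filled circles the longer and open squares the shorter list. WT mice 2, 4 and 5 lie above the PiZ mice of like miR-21a-3p level, and WT mice 1 and 3 lie lowest on both axes.

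The 2 shallowest libraries were low in more than miR-21. Relative to WT mice 2, 4 and 5, WT mice 1 and 3 had mean CPM 4.49-fold lower for miR-21a-5p, 4.15-fold lower for miR-21b, 4.76-fold lower for miR-21c and 1.80-fold lower for miR-21a-3p. These sizes describe 2 libraries and carry no test. Of 336 tested miRNAs, 99 were lower in both than in every other WT mouse and 78 were higher in both. Among 44 miRNAs with a mean of at least 1000 CPM, miR-21a-5p had the 4th lowest ratio.

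Some markers of cell types were lower in these libraries too, and others were not. The 2 endothelial miRNAs, the arms of miR-126a, summed to 7897 to 12653 CPM in WT mice 1 and 3 and to 32304 to 41279 CPM in the other WT mice. The 6 hepatocyte miRNAs summed to 87555 to 139490 against 273595 to 304791 CPM, a sum carried by miR-192-5p and miR-148a-3p. Both libraries lay below every other WT mouse for 5 of the 6, but miR-122-5p, the defining hepatocyte miRNA, overlapped (11954 to 13597 against 11669 to 14245 CPM). The 5 immune miRNAs summed to 624 to 693 against 1047 to 1891 CPM. Of these, 3 lay below (both arms of miR-142 and miR-223-3p), miR-155-5p overlapped, and miR-150-5p lay above (270 to 443 against 162 to 217 CPM).

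The 6 tested mesenchymal miRNAs summed to 5786 to 8351 against 11497 to 16876 CPM, a sum carried by miR-143-3p. Of these, 3 lay below, miR-199a-5p overlapped, and 2 lay above. Those 2 were miR-145a-5p (343 to 561 against 196 to 295 CPM) and miR-214-3p (58.2 to 78.7 against 25.6 to 39.4 CPM). The 5 biliary miRNAs summed to more in these libraries, 242 to 280 against 189 to 235 CPM. The 4 erythroid miRNAs overlapped in sum, 328 to 1079 against 259 to 1003 CPM, and 3 of them lay below. Members of 1 list thus went both ways. In PiZ mice the sums were 23357 to 28799 CPM (endothelial), 216337 to 356543 CPM (hepatocyte), 1671 to 2632 CPM (immune) and 9899 to 14806 CPM (mesenchymal). The part of cell composition in the miR-21 values was not tested.

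Base composition moved with it too. The difference in log2 CPM between WT mice 1 and 3 and the other WT mice followed the G and C content of the mature sequence (Pearson r = 0.668, Spearman rho = 0.669). This is a description across 293 miRNAs of the same 5 libraries, not a test. The 100 miRNAs with the lowest content (at most 40.9%) had a median difference of -0.90, and 80 of them were lower. The 86 with the highest content (at least 52.2%) had a median of 0.58, and 10 of them were lower.

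The G and C content is 36.4% for miR-21a-5p, 30.4% for miR-21b, 38.1% for miR-21c and 59.1% for miR-21a-3p. The 19 tested miRNAs with the content of miR-21a-5p had a median difference of -0.86, against -2.19 for miR-21a-5p itself, and 2 of the 19, itself included, lay at or below it. miR-21a-3p, at -0.82, was among the 10 of the highest class that were lower. The fold change of PiZ over WT also moved with the content, with a Pearson r of -0.157 and a Spearman rho of -0.291 across the 293 miRNAs. Across the 35 with a mean of at least 1000 CPM, among them the 3 guide rows, r was -0.545 and rho -0.429. These fold changes hold WT mice 1 and 3 on the WT side, so they are not separate from the pattern above. No correlation was computed without those mice. The part of base composition in the low miR-21 values and in the genotype comparison was not tested.

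**Figure D5:**
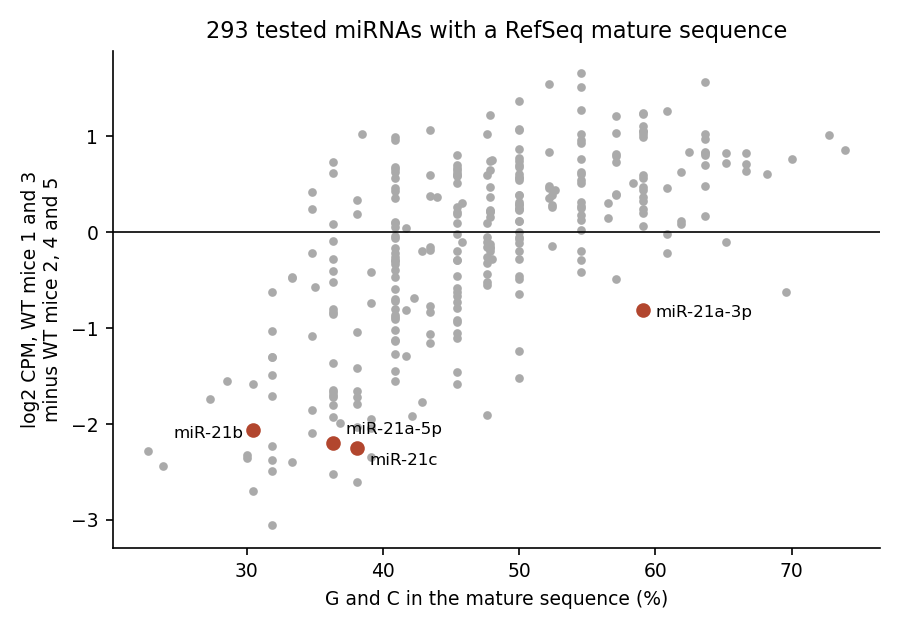
Difference in log2 CPM between WT mice 1 and 3 and WT mice 2, 4 and 5 (vertical axis) against the G and C content of the mature sequence (horizontal axis, percent), 1 grey point per tested miRNA (293). The 4 red points are the miR-21 rows, and the 3 guide rows lie between -2.06 and -2.25.

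Across the 10 mice the miRNAs most like miR-21a-5p in log2 CPM were miR-192-5p (Pearson r = 0.970), miR-872-5p (0.962), miR-3068-3p (0.961), miR-21b (0.957), miR-30d-3p (0.949) and miR-450b-5p (0.946). Spearman's rho for these lay between 0.758 and 0.927. The least alike were miR-484 (Pearson r = -0.934), miR-214-3p (-0.886), miR-339-5p (-0.859) and miR-193b-3p (-0.796). These values are read as an order only, because all mice share the scaling and WT mice 1 and 3 are a cluster of their own.

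The likeness rested in large part on those mice. Without them the Pearson r fell to 0.823 for miR-192-5p, 0.815 for miR-872-5p, 0.904 for miR-3068-3p, 0.708 for miR-21b, 0.715 for miR-30d-3p and 0.586 for miR-450b-5p. None of the 6 remained among the 6 most alike, and 5 of the 20 most alike over 10 mice remained among the 20 most alike over 8. miR-192-5p, a hepatocyte miRNA, went from 41468 and 63796 CPM in WT mice 1 and 3 to 184434 to 211094 CPM in the other WT mice.

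The companion list of injury, inflammation and fibrosis miRNAs held 16 names other than miR-21, of which 15 were tested; miR-222-3p had 4 reads in all. None of the 15 was called between the genotypes, beside 9.23% of all tested miRNAs. The log2 fold change was above 0 for 8 of them, and their median was 0.060 against 0.069 for all tested. miR-223-3p, a myeloid miRNA, came closest. Its PiZ mean was 26.1 ± 1.76 CPM and its WT mean 14.6 ± 4.73 CPM (SD, n = 5 each), a log2 fold change of 0.77 with an SE of 0.23 (edgeR, adjusted p = 0.0632). DESeq2 called it (log2 fold change 0.70, adjusted p = 0.0220), as did edgeR without PiZ mouse 5 (adjusted p = 0.0443). No other alternative called it, limma-voom among them (log2 fold change 0.72, adjusted p = 0.116).

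The hypoxia miRNA miR-210-3p had a PiZ mean of 34.9 ± 14.2 CPM and a WT mean of 57.0 ± 12.1 CPM (SD, n = 5 each), for a log2 fold change of -0.67 with an SE of 0.31 (edgeR, adjusted p = 0.215). miR-29c-3p, of a family that represses collagen genes, was at 958 ± 196 and 675 ± 219 CPM (log2 fold change 0.51, SE 0.26, edgeR adjusted p = 0.233). miR-132-3p had a log2 fold change of 0.39 (edgeR, adjusted p = 0.415) and miR-221-3p of -0.36 (edgeR, adjusted p = 0.411). Without WT mice 1 and 3 the log2 fold change was 0.18 for miR-29c-3p, 0.67 for miR-132-3p and -0.076 for miR-221-3p (edgeR, adjusted p = 0.434, 0.154 and 0.842). It was 0.59 for miR-223-3p and -0.63 for miR-210-3p (edgeR, adjusted p = 0.109 and 0.293). The remaining 10 tested names, among them miR-155-5p, miR-146a-5p, miR-34a-5p, miR-199a-5p, miR-214-3p and miR-29a-3p, lay between -0.29 and 0.34. The list as measured thus held values on both sides of 0, and with all mice miR-21a-5p lay near its middle.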

How the data were processed

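The authors deposited 1 table of estimated counts per mature miRNA for each of 20 runs, which were 2 technical runs of each of 10 liver libraries, per the labels. Per the labels' protocols, libraries came from miRNeasy RNA and the TruSeq small RNA kit. Per the submitters' processing notes, CASAVA was used; aligner, miRBase release and genome build: not given in the sources used here.

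Runs were summed and rounded to whole numbers. The runs differed little more than sampling allows for the miR-21 rows (chi-square per degree of freedom 0.206 to 2.56). The 880 miRNAs listed in every file were filtered with filterByExpr, leaving 336. TMM factors and edgeR 4.0.16 were used (quasi-likelihood test, terms feature list and genotype, Benjamini-Hochberg adjustment over 336, threshold 0.05). Intervals are the fold change ± its SE times the quantile of the t distribution at the test's degrees of freedom. Single values were compared with exact two-sided permutation tests (scipy 1.17.1), the arm ratio with a pseudocount of 0.5. Alternatives used DESeq2 1.42.0 and limma 3.58.1 in R 4.3.3, other scalings, no filter, each run, each feature list, each mouse left out, and no WT mice 1 and 3. On simulated counts for 336 miRNAs at 5 against 5, 14 of 30 changes of 2-fold, 27 of 30 of 4-fold and 30 of 30 of 8-fold were called, and 3 of 246 unchanged miRNAs. The simulation held no feature-list effect and no libraries shifted like WT mice 1 and 3. It therefore does not show how often a change in the miR-21 rows would be called.

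Sequences and coordinates are RefSeq's for GRCm38.p6, matched by name; all 4 rows matched, and 293 of 336 tested miRNAs (87.2%) had a mature sequence for the G and C content.

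The miR-21 rows, the lists and the tests were chosen with earlier results of these data known. The miRNAs named are the members, those sharing a seed, the tested injury list, the 6 most and 4 least alike to miR-21a-5p, and its neighbours in abundance. The cell type list miRNAs, miR-590-5p, miR-101a-3p and miR-92b-3p were named after their values were seen. The comparison of miR-21b alone, the guide rows summed without WT mice 1 and 3, and library totals without those mice were added after seeing the data.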

Additional observations from a re-analysis of the deposited data

Results flagged for a closer look

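Of 28 groups of 5 mice examined for a value far from the rest, 4 held one, where chance would give about 1 in 20. All but 1 of them were in PiZ mouse 2. Its share of guide-row reads under miR-21b or miR-21c was 56.3%, against 44.4% to 45.6% in the other PiZ mice, and the gap to the nearest was 0.898 of the group's range. Its share under miR-21b was 34.7%, against 30.4% to 31.2% (0.808 of the range). Its share under miR-21c was 21.6%, against 13.9% to 14.4% (0.935 of the range). The miR-21b share was 34.7% in the first run of that library and 34.6% in the second. These 3 measures share their reads and are 1 pattern.

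The other was miR-132-3p, whose log2 CPM in PiZ mouse 5 was 4.70, against 5.17 to 5.32 in the other PiZ mice (0.764 of the range).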

How the results depend on the processing

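In the comparison of PiZ with WT, the 4 rows stayed uncalled under every alternative run, and miR-21a-3p stayed positive in all of them (0.32 to 0.82). The sign of miR-21a-5p turned negative in 9 of 15 alternatives other than single mice left out: -0.0072 with DESeq2's size factors and -0.0072 with DESeq2, -0.12 with upper-quartile factors, -0.097 without the filter, -0.10 in run 1, -0.44 in the shorter list, -0.47 without WT mice 1 and 3, -0.39 without them on library totals, and -0.35 for the 3 guide rows summed without them. miR-21b turned to -0.16 in the shorter list and -0.072 without WT mice 1 and 3. miR-21c turned to -0.067 with upper-quartile factors, -0.031 without the filter, -0.050 in run 1, -0.47 without WT mice 1 and 3, -0.40 without them on library totals, and -0.55 in the shorter list. miR-221-3p turned to 0.0061 without WT mice 1 and 3 on library totals.

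Leaving out 1 mouse at a time gave -0.33 to 0.44 for miR-21a-5p, 0.32 to 0.82 for miR-21a-3p, 0.18 to 0.77 for miR-21b and -0.13 to 0.52 for miR-21c. The interaction of miR-21a-5p ranged from -2.07 to -0.49 and was 0.16 without WT mice 1 and 3. The number of miRNAs called, 31, ranged from 8 to 53. It was 83 of the 852 fitted without the filter, 50 with DESeq2, 7 with limma-voom (5 higher, 2 lower), 19 in run 1, 0 in the shorter list, 1 without WT mice 1 and 3, and 0 without them on library totals.

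The share of miR-21a-5p differed by -0.23 to 0.43 points with 1 mouse left out, -0.763 without WT mice 1 and 3, -0.678 in the shorter list and -0.956 for the summed rows without WT mice 1 and 3. The log2 arm ratio differed by -0.55 to -0.078 with 1 mouse left out, -0.85 without WT mice 1 and 3 and 0.15 in the longer list. The joint share of miR-21b and miR-21c differed by 2.04 to 5.37 points with 1 mouse left out and 4.75 points without WT mice 1 and 3. The exact permutation p of the latter was 0.0357, the smallest possible. Leaving out WT mouse 1 fixed that p in advance, so it is not evidence. For miR-21b alone the difference was 4.92 points, 4.17 without PiZ mouse 2, 5.67 without WT mice 1 and 3, and 4.92 and 4.95 in the runs. For miR-21c alone it was -0.618. The cause of these shifts was not tested. Depth limits miR-21a-3p most, with 87 reads in its lowest library. No paired analysis was possible because the labels' replicate numbers mark technical runs of 1 library, and the PiZ and WT mice are different animals.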

Other observations

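The ratio of miR-21b to miR-21c reads took values in a narrow range in PiZ mice 1, 3, 4 and 5, at 2.21, 2.18, 2.17 and 2.25, and WT mouse 3 was close to them at 2.13. The other mice lay lower, PiZ mouse 2 at 1.603 and WT mice 1, 2, 4 and 5 at 1.53, 1.39, 1.58 and 1.79. No test was made of this arrangement, which was noticed in the data.

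Other abundant miRNAs were also low in WT mice 1 and 3. miR-101a-3p had mean CPM 5.21-fold lower than in the other WT mice, miR-142-5p 4.73-fold and miR-126a-5p 3.82-fold lower, while miR-92b-3p was 2.07-fold higher.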
